A study of Mus musculus with 12 samples.

Results

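Fragments of tRNA-Glu, the tRNA that carries glutamate to the ribosome, were measured by small RNA sequencing in mouse sperm and in TM4 cells, a line derived from mouse Sertoli cells, the somatic cells that nurse developing germ cells. The members were the 2 cytosolic isoacceptors of tRNA-Glu, mature-tRNA-Glu-CTC and mature-tRNA-Glu-TTC (Glu-CTC and Glu-TTC), named by anticodon, of 51 isoacceptors in the annotation of the libraries. They were chosen by name and not by their values, though with earlier results of these data known. Each isoacceptor gave 3 kinds of fragment (tRF): tRF5 reads began at the 5′ end of the mature tRNA, tRF3 reads ended at its 3′ end with or without the CCA tail, and the class called other held all remaining reads. This made 6 tRNA-Glu tRFs of 152 tRFs with a read in any library.

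The 12 libraries fell into 5 groups. C57BL/6J males were fed a control diet (CD, 16% of energy from fat) or a high-fat diet (HFD, 69% of energy from fat in the labels, a lower figure in the methods for the same diet code) for 7 weeks from the age of 4 weeks (a later start is given in 1 other place of the study), and each group had 3 sperm libraries. Each sperm library held RNA of mature epididymal sperm pooled from 3 males. TM4 cells were untreated controls (Ctrl), were given 10 µM Compound C (CC), an inhibitor of the energy sensor AMPK, for 12 h, or overexpressed the full-length coding sequence of the ribonuclease angiogenin (Ang OE) from a Gateway plasmid, with 2 libraries per group. No source used here says that the control cells carried an empty vector, or that libraries of a TM4 group came from separate cultures, so that p-values measure only the spread between these libraries.

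Angiogenin is a secreted ribonuclease that cuts mature tRNAs in the anticodon loop under stress and leaves a 5′ and a 3′ fragment. Mature sperm carry large amounts of 5′ tRNA fragments, and those of tRNA-Glu and tRNA-Gly are among the best known of them. The CCA tail is not encoded in the mouse genome and is added to every mature tRNA by an enzyme, so that a read with this tail came from a finished tRNA and not from a precursor.

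The genes of the 2 isoacceptors are described first because their shared ends set how a read was assigned. A search of the GRCm39 genome for the tRNA-Glu cloverleaf found 19 genes of 72 bases on the chromosomes searched, 11 with the CTC and 8 with the TTC anticodon, with 6 distinct sequences. The RefSeq annotation of GRCm38.p6 lists 20, of which 1 CTC gene on chromosome 7 was not found. The 19 found here match it in chromosome and anticodon. Where several of 1 anticodon lie on a chromosome, they also match in spacing. Any match on the chromosome left out, named under data processing, did not enter this comparison. The agreement thus covers only the chromosomes kept, and cannot show whether the search also found sequences that RefSeq does not list. Of the 19 genes, 11 lay between annotated genes, 7 in introns and 1 in an exon of the long non-coding RNA Gm37233. The sequence most often found among the TTC genes is written 5′ to 3′ with the anticodon in capitals. It is that of 4 genes, such as chr13:23647705-23647776 on the plus strand in an intron of Btn1a1.

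TTC-1: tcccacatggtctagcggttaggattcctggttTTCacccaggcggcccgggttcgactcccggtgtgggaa

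Of the 19 genes, 13 began with the same 18 bases, 11 with the CTC and 2 with the TTC anticodon, and the TTC sequence shown was not among them. A read that fits several genes is split among them in these files. In 12 of 12 libraries the tRF5 reads of the 2 isoacceptors added up to a whole number within 0.02 reads. In the same 12 the value of Glu-TTC was a multiple of 1/13, within a narrower margin. Short 5′ reads that both isoacceptors could give were thus divided 11 to 2, and part of the tRF5 value of either isoacceptor may come from genes of the other. The tRF3 reads also summed to a whole number in 12 of 12 libraries, and those of the class other in 0 of 12.

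Sequencing gave 31710445 to 41532413 clean reads per sperm library and 51457711 to 64038150 per TM4 library, of which ribosomal RNA took 16.5% to 32.9% and 5.92% to 8.58%. Levels are given as RPM, that is per 1000000 clean reads without ribosomal RNA. A single read is worth at most 0.0434 RPM in sperm and 0.0210 RPM in TM4. tRNA-Glu gave 262641 to 491114 reads per sperm library and 84625 to 190148 per TM4 library. By marker miRNAs, the sperm libraries held the germ cell list (8 of 8 precursors above 0 in every library, summed 1809 to 4958 RPM for the CD, 1861 to 2537 RPM for the HFD). They also held the lists of the epididymal epithelium (4480 to 7580 RPM over all 6), smooth muscle (15352 to 29715 RPM) and red blood cells (12630 to 25341 RPM). The white blood cell list stood at 285 to 337 RPM with the CD, below the 423 to 719 RPM with the HFD. The TM4 libraries had 1.55 RPM or less of the epithelial list. Their germ cell list summed to 550 to 1335 RPM, mostly mir-34c (503 to 1277 RPM), with no read of mir-880 and mir-743a. Their smooth muscle list, at 29771 to 79792 RPM, stood above that of every sperm library. The files hold no list that defines Sertoli cells, so this part of the label was not checked. The part of other cell types in the results was not tested, and in bulk libraries fewer cells of a type and less RNA per cell cannot be told apart.

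In sperm, tRNA-Glu was present above all as the 5′ fragment of Glu-CTC. This tRF5 stood at 14369, 7673 and 13987 RPM in CD replicates 1, 2 and 3, and at 10879, 10294 and 9674 RPM in HFD replicates 1, 2 and 3. CD replicate 2 was the lowest of all 6 sperm libraries and the other CD libraries were the highest, so that the HFD libraries lay inside the CD range. Among 152 tRFs it ranked 2 or 3 in every sperm library, and the class other of Glu-CTC, at 2187 to 3424 RPM, ranked between 8 and 10.

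The tRF5 of Glu-TTC was scarcer than that of Glu-CTC, at 423 to 691 RPM in sperm. CD replicates 1 to 3 had 553, 423 and 651 RPM of it, and HFD replicates 1 to 3 had 443, 525 and 691 RPM. Per read of the Glu-TTC tRF5 there were 14.0 to 26.0 reads of the Glu-CTC tRF5 in the sperm libraries. The other class of Glu-TTC, at 496 to 905 RPM, was about as abundant as its tRF5.

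Fragments of the 3′ end were nearly missing from sperm. The tRF3 of Glu-CTC stood at 5.10 to 8.78 RPM and that of Glu-TTC at 6.57 to 8.71 RPM, and both ranked between 115 and 129 of the 152 tRFs. These values rest on 291 to 487 reads per library for the 2 isoacceptors together, of which 78.4% to 89.6% carried the CCA tail.

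In TM4 cells the order was turned. The other class of Glu-CTC led at 1063 to 2507 RPM and ranked between 1 and 10 among all tRFs, and it was followed by the tRF3 of Glu-CTC at 233 to 657 RPM. The tRF5 of Glu-CTC stood at 117 and 84.6 RPM in Ctrl, at 91.2 and 36.1 RPM in CC and at 164 and 245 RPM in Ang OE replicates 1 and 2. Both Ang OE libraries thus lay above all Ctrl and CC libraries. Its rank moved from 37 and 47 in Ctrl to 51 and 82 in CC and to 24 and 23 in Ang OE.

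The 3 kinds of Glu-TTC fragment were near each other in TM4 cells, with 51.7 to 115 RPM for tRF5, 79.6 to 185 RPM for tRF3 and 104 to 155 RPM for other. In contrast to sperm, the tRF5 reads of Glu-CTC were 0.489 to 3.18 per read of Glu-TTC. The 3′ reads were mostly complete in their tail, with CCA on 99.0% to 99.5% of the tRNA-Glu tRF3 reads. No read was assigned to a precursor of tRNA-Glu in any of the 12 libraries.

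**Figure D1:**
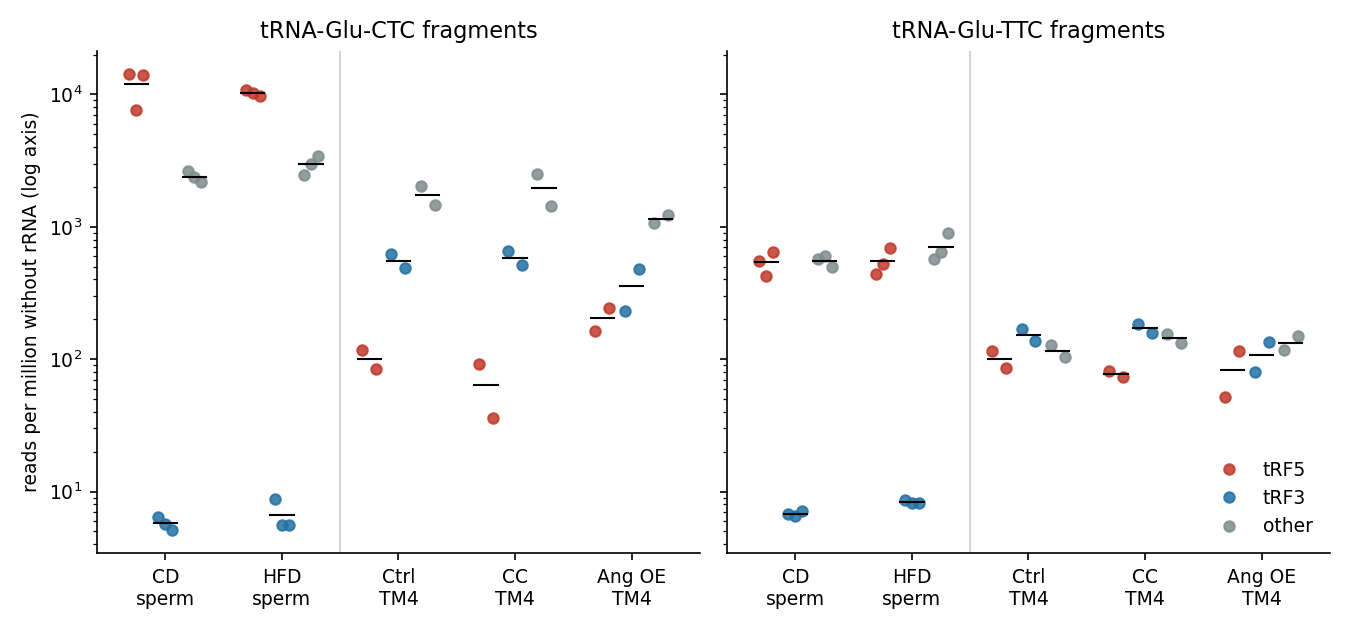
Level of each tRNA-Glu tRF in RPM, without rRNA, on a log axis, for Glu-CTC on the left and Glu-TTC on the right. Each point is a library (3 per sperm group, 2 per TM4 group) and each black line a group mean. In sperm the tRF5 of Glu-CTC (red) lies at 7673 to 14369 RPM and the tRF3 (blue) at 5.10 to 8.78 RPM, and in TM4 cells the tRF3 lies at 233 to 657 RPM.

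Expressed as shares, tRF5 made up 73.8% to 86.5% of the Glu-CTC reads and 40.8% to 56.4% of the Glu-TTC reads in sperm. In TM4 cells it made up 1.82% to 12.6% of the Glu-CTC reads and 19.4% to 28.9% of the Glu-TTC reads. The tRF3 share was 0.0315% to 0.0657% of the Glu-CTC reads in sperm and 15.9% to 26.0% in TM4 cells. For Glu-TTC it was 0.510% to 0.855% and 32.1% to 43.8%. The 2 isoacceptors thus differed in composition within each source, and the range of sperm lay apart from that of TM4 for tRF5 and tRF3 of both.

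**Figure D2:**
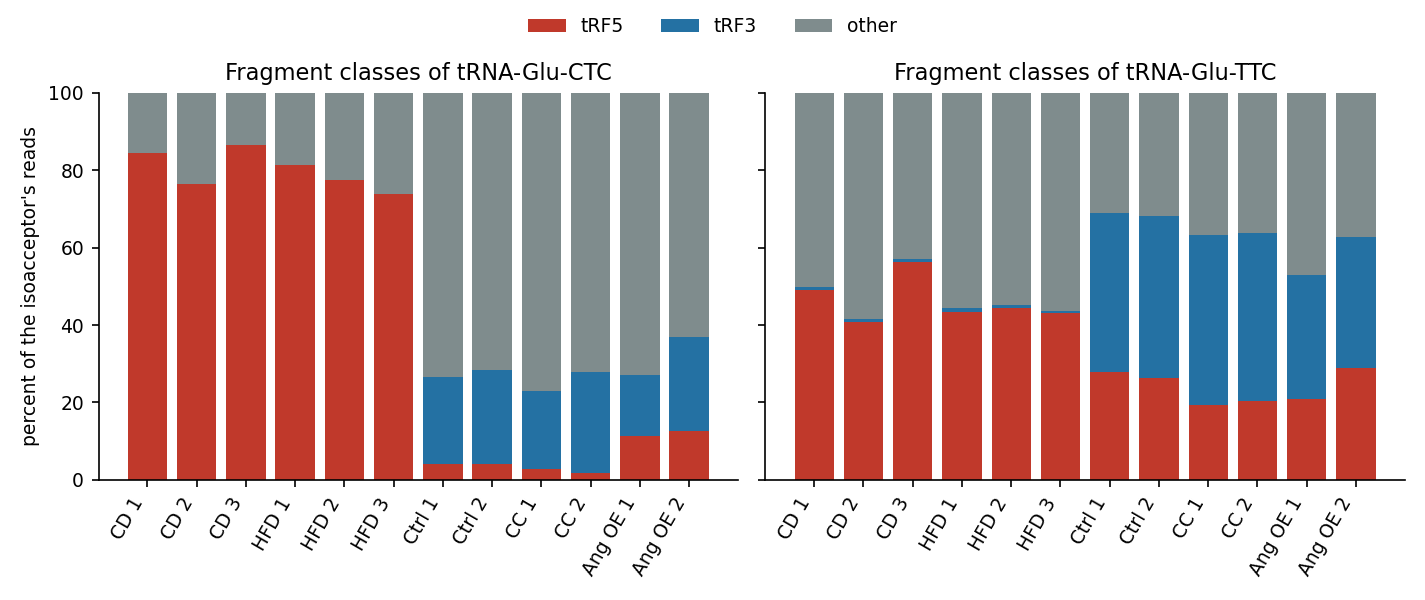
Stacked bars of the percent of reads in the tRF5, tRF3 and other classes for each of the 12 libraries, for Glu-CTC on the left and Glu-TTC on the right. Sperm libraries have 73.8% to 86.5% tRF5 for Glu-CTC, and the TM4 libraries have 1.82% to 12.6%, with the Ang OE libraries (11.3% and 12.6%) highest among TM4.

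In the comparison of HFD with CD sperm, which asks whether diet alters sperm tRFs, no tRNA-Glu tRF passed the test. The tRF5 of Glu-CTC averaged 10282 RPM ± 602 (SD, n = 3) after the HFD, against 12010 RPM ± 3760 after the CD, a log2 fold change of −0.22 ± 0.30 (SE). That of Glu-TTC averaged 553 RPM ± 126 and 542 RPM ± 114, a log2 fold change of 0.03 ± 0.34. The remaining 4 tRFs had log2 fold changes between 0.21 and 0.35, with adjusted p between 0.450 and 0.599 by edgeR's quasi-likelihood test with Benjamini-Hochberg adjustment over 142 tRFs. Of the 6 tRFs, 0 passed at an adjusted p of 0.05, and 0 at an unadjusted p of 0.05. DESeq2 called 0 of the 6 and 0 of all 142. Over all tRFs 0.0% passed when adjusted and 16.2% unadjusted. The median log2 fold change was 0.25 over the 6 and 0.44 over all 142 tRFs, and with TMM scaling, which takes the bulk of tRFs as level, the median of all tRFs was −0.08 and all 6 tRNA-Glu values were below 0. The tRF5 of Glu-CTC was then at −0.81. It was at −0.70 with DESeq2's own size factors and at −0.075 without CD replicate 1, and passed in none of these.

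The groups of 1 tRNA-Glu tRF did not overlap. The tRF3 of Glu-TTC had 6.78, 6.57 and 7.10 RPM in the CD libraries, all below the 8.71, 8.14 and 8.18 RPM of the HFD libraries, while 26.8% of all tRFs had groups that did not overlap. Its log2 fold change was 0.29 ± 0.30 with an adjusted p of 0.455, and −0.26 with TMM. The totals of Glu-CTC were 14411 RPM ± 3805 with the CD and 13257 RPM ± 137 with the HFD (SD, n = 3), and those of Glu-TTC 1105 RPM ± 62.2 and 1268 RPM ± 302. Neither passed edgeR's test (adjusted p = 0.687 and 0.501), as 0.0% of 50 isoacceptors did. At an unadjusted p of 0.05 0 of 2 passed, against 44.0% of all isoacceptors. DESeq2 called 0 of the 2 and 12 of the 50.

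CD replicate 2, the sperm library with the lowest tRF5 of Glu-CTC, also had the highest sum of the germ cell miRNA list, and the part of this in the comparison was not tested. Without it, the log2 fold change of this tRF5 was −0.46 and that of Glu-TTC −0.12, and 26 of 142 tRFs passed the test, of which 0 were from tRNA-Glu.

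No difference in the composition of tRNA-Glu reads in sperm passed the test. tRF5 reads were 82.3%, 73.1% and 84.5% of all tRNA-Glu reads in CD replicates 1 to 3 and 78.7%, 74.7% and 70.5% in HFD replicates 1 to 3. The means were 79.9% ± 6.04 and 74.6% ± 4.11 (SD, n = 3; two-sided exact permutation p = 0.3, adjusted p = 0.75 over 3 shares). Of the tRNA-Glu reads, Glu-CTC took 92.6% ± 1.69 with the CD and 91.3% ± 1.97 with the HFD (SD, n = 3), and the exact permutation test gave p = 0.5 (adjusted p = 0.75). The share of tRNA-Glu in all mature tRNA reads lay between 10.3% and 11.8% in the 6 libraries (p = 0.8 by the exact permutation test, also after adjustment). With 3 libraries against 3 this test cannot go below 0.1. The widest 95% Wilson interval of a tRF5 share in any of the 12 libraries was 0.448 percentage points and covers counting error only.

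In the comparison of CC with Ctrl, which asks whether inhibition of AMPK alters tRFs of TM4 cells, the tRF5 of both isoacceptors was lower on average and none of the 6 tRFs passed the test in the fit of all 6 TM4 libraries. The tRF5 of Glu-CTC had 63.6 RPM ± 39.0 in CC and 101 RPM ± 23.2 in Ctrl (SD, n = 2), a log2 fold change of −0.67 ± 0.45 with an adjusted p of 0.314 by edgeR. That of Glu-TTC had 77.8 RPM ± 5.69 and 100.1 RPM ± 20.2, a log2 fold change of −0.36 ± 0.37 with an adjusted p of 0.483. The other 4 tRFs had log2 fold changes between 0.08 and 0.31. Of the 6, 0 passed at an adjusted p of 0.05 and 0 unadjusted, against 0.699% of 143 tRFs adjusted and 27.3% unadjusted. DESeq2 called 0 of the 6 and 6 of the 143. After ComBat-seq, a batch adjustment of counts, by replicate number, edgeR called 0 of the 6 and 50 of 142 tRFs. The median was 0.12 over the 6 and 0.43 over all tRFs, which TMM scaling moved to −0.05, and all 6 tRNA-Glu values were then below 0.

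The CC libraries differed from each other. Replicate 2 had 36.1 RPM of the Glu-CTC tRF5 and replicate 1 had 91.2 RPM, which lay within the Ctrl range. Without CC replicate 1 the log2 fold change was −1.48 with an adjusted p of 0.0278 by edgeR, and 41 of 143 tRFs passed. The lone CC library is then taken to vary like the other groups. Without CC replicate 2 the value was −0.15. For 2 of the 6 tRFs the CC and Ctrl groups did not overlap, beside 64.3% of all tRFs. The tRF5 of Glu-TTC was lower in both CC libraries, with 81.8 and 73.8 RPM against 114 and 85.9 RPM in Ctrl. Its other class was higher in both, with 155 and 132 RPM against 127 and 104 RPM.

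tRF5 made up 4.71% and 4.68% of the tRNA-Glu reads in CC replicates 1 and 2 and 7.26% and 7.24% in the Ctrl libraries, and no library of a group was within the range of the other. In mature tRNA reads outside tRNA-Glu the share of tRF5 was also lower in CC, at 25.1% and 7.39% against 43.6% and 28.6% in Ctrl. With 2 libraries against 2 an exact permutation test cannot go below 1/3, so these shares were not tested. The share of Glu-CTC in tRNA-Glu reads, 88.5% and 84.5% in CC and 87.2% and 86.1% in Ctrl, overlapped, as did that of tRNA-Glu in mature tRNA reads (13.5% and 8.79% against 11.6% and 10.4%). The isoacceptor totals had log2 fold changes of 0.12 ± 0.47 for Glu-CTC and 0.09 ± 0.34 for Glu-TTC, and 0 of 2 passed edgeR's test at an adjusted or unadjusted p of 0.05, against 1.96% of 51 isoacceptors adjusted and 37.3% unadjusted. DESeq2 called 0 of the 2 and 3 of the 51. Of the marker lists, that of red blood cells was lower in CC (1091 to 1152 RPM, 1607 to 1639 RPM in Ctrl) and that of white blood cells higher (822 to 877 against 713 to 761 RPM). Nearly all of these sums was mir-486 and mir-155. In the white blood cell list mir-150 was lower in both CC libraries (0.948 and 0.903 RPM, 1.48 and 1.38 RPM in Ctrl). Its mir-142a overlapped, and its mir-223 stood near 0. The part of these lists was not tested.

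In the comparison of Ang OE with Ctrl, which asks how more of the nuclease alters tRFs, the tRF5 of Glu-CTC was higher in both Ang OE libraries and its tRF3 and other fragments were lower in both. Its tRF5 had 205 RPM ± 57.0 in Ang OE and 101 RPM ± 23.2 in Ctrl (SD, n = 2), a fold of 2.03. The log2 fold change of 1.02 ± 0.45 had an unadjusted p of 0.0541 and an adjusted p of 0.144 by edgeR, and did not pass. The tRF3 of Glu-CTC had 233 and 477 RPM in Ang OE and 620 and 491 RPM in Ctrl, a log2 fold change of −0.65 ± 0.43. With single libraries left out, this value ran from −1.25 to −0.22. The other class had 1063 and 1229 RPM against 2043 and 1451 RPM, a log2 fold change of −0.61 ± 0.48. Groups did not overlap for 77.6% of all tRFs in this comparison.

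The fragments of Glu-TTC did not follow those of Glu-CTC in every class. Its tRF5 had 51.7 and 115 RPM in Ang OE replicates 1 and 2 and 114 and 85.9 RPM in Ctrl, so that the groups overlapped, with a log2 fold change of −0.26 ± 0.37. Its tRF3 had 79.6 and 135 RPM against 168 and 137 RPM, a log2 fold change of −0.51 ± 0.31. The other class had 117 and 149 RPM against 127 and 104 RPM, a log2 fold change of 0.20 ± 0.26. The difference between the responses of the 2 isoacceptors was not tested.

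Of the 6 tRFs, 0 passed edgeR's test at an adjusted or an unadjusted p of 0.05 in this comparison, against 10.5% of 143 tRFs adjusted and 35.7% unadjusted. DESeq2 with the same library sizes called 0 of the 6 and 32 of the 143, and 54 of the 143 with its own size factors. The median was −0.39 over the 6 and −0.01 over all tRFs. The call on the Glu-CTC tRF5 depended on the fit, since its log2 fold change of 1.02 had an adjusted p of 0.0399 when Ang OE and Ctrl were fitted alone and passed also without either CC library (adjusted p = 0.0356 and 0.0381 by edgeR). In these fits the calls over all tRFs also went up, from 15 of 143 to 45 of 142 with the 2 groups alone and to 44 and 45 of 143 without a CC library. Without Ctrl replicate 2 they fell to 3 of 143. After ComBat-seq, a batch adjustment of counts, by replicate number this tRF5 also passed (1.08, adjusted p = 0.0441 by edgeR), with 62 of 142 called. The isoacceptor totals had log2 fold changes of −0.50 ± 0.47 for Glu-CTC and −0.19 ± 0.34 for Glu-TTC. Of these, 0 of 2 passed edgeR's test at an adjusted or unadjusted p of 0.05, against 41.2% of 51 isoacceptors adjusted and 52.9% unadjusted. DESeq2 called 0 of the 2 and 24 of the 51.

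By share, tRF5 reached 12.6% and 15.3% of the tRNA-Glu reads in Ang OE replicates 1 and 2, above the 7.26% and 7.24% of Ctrl. Outside tRNA-Glu, tRF5 was 65.3% of the mature tRNA reads in both Ang OE libraries and 43.6% and 28.6% in Ctrl. The share of tRNA-Glu in mature tRNA reads was 4.64% and 4.74% in Ang OE and 11.6% and 10.4% in Ctrl. Both Ang OE libraries lay below all other libraries of the series in this share, while their total of mature tRNA reads, 1821996 and 2702832, was above the 1380934 and 1350965 of Ctrl. Glu-CTC took 85.5% and 83.0% of the tRNA-Glu reads in Ang OE, below the 87.2% and 86.1% of Ctrl. The marker lists of smooth muscle (61711 and 79792 RPM in Ang OE, 29771 to 31248 RPM in Ctrl), mesenchymal cells (81448 to 82655 against 48518 to 52448 RPM) and germ cells (1195 to 1335 against 591 to 609 RPM) were also higher in the Ang OE libraries, and that of red blood cells was lower (1090 to 1164 against 1607 to 1639 RPM). Most of each sum came from 1 precursor, namely mir-143, mir-21a, mir-34c and mir-486 in the order of these lists. In the mesenchymal list mir-21a rose (69181 and 71524 RPM in Ang OE, 35223 and 37801 RPM in Ctrl). Its mir-214, mir-221 and mir-222 were lower in both Ang OE libraries, as was mir-133a of smooth muscle, and its mir-199a overlapped. The part of these lists in the tRNA-Glu values was not tested.

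Set against CC, the tRF5 of Glu-CTC was the 1 tRNA-Glu tRF that passed in Ang OE. It was 3.21-fold higher, with 164 and 245 RPM in Ang OE and 91.2 and 36.1 RPM in CC, and the log2 fold change was 1.68 ± 0.46 (adjusted p = 0.0185 by edgeR). Groups did not overlap for 79.7% of all tRFs here. The call on this tRF5 stood in 19 of 19 alternative settings, with log2 fold changes from 1.17 to 2.50, the lowest of them without CC replicate 2 and the highest without CC replicate 1. Over all tRFs 51.7% passed in this comparison, and 13.3% were called higher. This comparison and the previous ones share libraries. Against CC, too, the marker lists of smooth muscle (30287 to 42667 RPM in CC), mesenchymal cells (50410 to 53794 RPM) and germ cells (550.4 to 595 RPM) were higher in Ang OE. Most of each sum was again mir-143, mir-21a or mir-34c. The mesenchymal mir-221 and mir-222 and the smooth muscle mir-133a were lower in both Ang OE libraries. The part of these lists was not tested.

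The other tRNA-Glu tRFs had log2 fold changes between −0.78 and 0.10 in Ang OE against CC. The tRF3 of Glu-TTC came nearest to the threshold, with 79.6 and 135 RPM in Ang OE and 185 and 158 RPM in CC, a log2 fold change of −0.68 ± 0.32 and an adjusted p of 0.104 by edgeR. It passed with ComBat-seq by replicate number (−0.72, adjusted p = 0.0432 by edgeR) and without Ang OE replicate 2 (−1.11, adjusted p = 0.0452), where the lone Ang OE library is taken to vary like the other groups. The median was −0.39 over the 6 and −0.38 over all tRFs, which TMM scaling moved to 0.03. Neither isoacceptor total passed (log2 fold change of −0.62 ± 0.47 for Glu-CTC and −0.28 ± 0.34 for Glu-TTC), and 0 of 2 passed unadjusted, against 56.9% of 51 isoacceptors both adjusted and unadjusted. DESeq2 called 0 of the 2 and 28 of the 51.

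The largest differences were those between CD sperm and Ctrl TM4 cells, in which 5 of 6 tRNA-Glu tRFs passed the test, 3 higher and 2 lower in sperm, against 83.7% of 141 tRFs, 54.6% higher and 29.1% lower. The tRF5 of Glu-CTC was 119-fold higher in sperm, a log2 fold change of 6.89 ± 0.64 (adjusted p = 2.34e-23 by edgeR). That of Glu-TTC was 5.41-fold higher, a log2 fold change of 2.44 ± 0.39 (adjusted p = 2.22e-09 by edgeR). The other class of Glu-TTC was 4.81-fold higher, and that of Glu-CTC did not pass, with a log2 fold change of 0.46 ± 0.41 and −0.70 under TMM. Source, library depth and share of ribosomal RNA cannot be told apart here.

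The 3′ fragments went the other way. The tRF3 of Glu-CTC had a log2 fold change of −6.59 ± 0.41 and that of Glu-TTC of −4.48 ± 0.36 in sperm against TM4 (adjusted p = 3.79e-44 and 1.95e-29 by edgeR). Most of these reads carried the CCA tail. With CCA reads set apart, the log2 fold changes of the remaining tRF3 reads were −2.96 and −0.81, and both passed (adjusted p = 9.05e-11 and 0.0459 by edgeR). With genome-matched reads alone they were −0.66 and −0.30, and neither passed. The isoacceptor totals were higher in sperm, with log2 fold changes of 2.58 ± 0.49 for Glu-CTC and 1.58 ± 0.35 for Glu-TTC (adjusted p = 1.04e-06 and 2.10e-05 by edgeR), against 72.0% of 50 isoacceptors called. TMM scaling over tRFs moved the median of all tRFs from 1.12 to −0.08. With TMM scaling over isoacceptors, the isoacceptor total of Glu-TTC was 0.44 and did not pass.

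**Figure D3:**
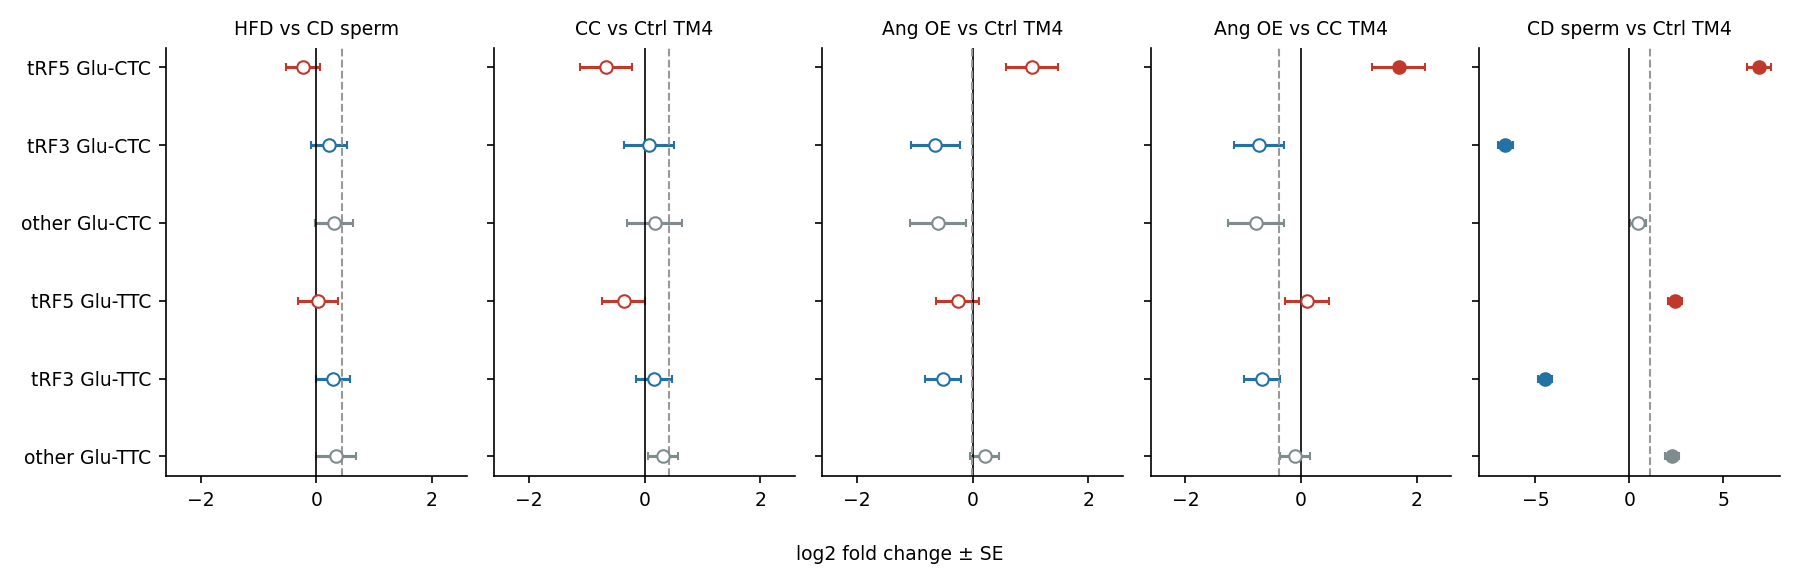
Log2 fold change with its SE for the 6 tRNA-Glu tRFs in each of 5 comparisons, with a wider axis in the last. Filled points passed edgeR's test at an adjusted p of 0.05, and the dashed line is the median of all tRFs. The tRF5 of Glu-CTC is at −0.22, −0.67, 1.02, 1.68 and 6.89 from left to right, and is filled in the last 2 panels.

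Ordered by mean, the tRF5 of Glu-CTC ran from CD sperm (12010 RPM) and HFD sperm (10282 RPM) to Ang OE (205 RPM), Ctrl (101 RPM) and CC (63.6 RPM). Of the neighbours in this order, HFD and CD sperm did not pass the test, and HFD sperm was not fitted against Ang OE cells. Ang OE and Ctrl, and Ctrl and CC, did not pass in the fit of all 6 TM4 libraries. Ang OE against Ctrl passed with the 2 groups alone, without either CC library and after ComBat-seq. Among the fits of fewer libraries with no block, CC against Ctrl passed only without CC replicate 1, and had an adjusted p of 0.282 by edgeR with the 2 groups alone. The tRF3 of Glu-CTC ran the other way round between the sources, with 586 RPM ± 99.7 in CC, 555 RPM ± 90.9 in Ctrl, 355 RPM ± 172 in Ang OE (SD, n = 2), and in sperm 6.65 RPM ± 1.84 after the HFD and 5.76 RPM ± 0.690 after the CD (SD, n = 3). No neighbours that were fitted against each other in this order passed the test.

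A list of 7 tRF5 of other tRNAs known from sperm or from cleavage by angiogenin gave the context: those of Gly-GCC, Gly-CCC, Val-CAC, Val-AAC, His-GTG, Lys-CTT and Asp-GTC. In Ang OE against Ctrl all 7 were higher, with a median log2 fold change of 1.56 and 0 called, beside 1.02 for Glu-CTC and −0.26 for Glu-TTC. The median of all 44 tRF5 was 0.63, of which 4 were called. In CC against Ctrl all 7 were lower, with a median of −1.37 and 0 called, beside −0.67 and −0.36 for tRNA-Glu. All 44 tRF5 had a median of −0.42 there, with 1 called higher and 0 lower. In Ang OE against CC 6 of 7 were called higher, with a median of 3.12, beside 1.68 for Glu-CTC and 0.10 for Glu-TTC, which was not called. Of all 44 tRF5, 16 were called higher and 3 lower, with a median of 1.02. The member of the list not called was Lys-CTT with 1.78 ± 0.77.

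In HFD against CD sperm, 2 of the 7 were higher and 0 called, with a median of −0.31, beside −0.22 for Glu-CTC, 0.03 for Glu-TTC and 0.29 for all 43 tRF5, of which 0 were called. In CD sperm against Ctrl TM4, 5 of the 7 were called higher and 2 lower, with a median of 2.13, while Glu-CTC was at 6.89 and Glu-TTC at 2.44. Of all 42 tRF5, 33 were called higher and 4 lower, with a median of 2.46. The highest of the list was Gly-GCC with 4.83 ± 0.70, and those called lower in sperm were Gly-CCC with −1.19 and Lys-CTT with −1.88.

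tRNA-Gly and tRNA-Val, which like tRNA-Glu were mostly 5′ fragments in sperm, stood above it in TM4 cells. In sperm tRF5 made up 81.4% to 91.0% of tRNA-Gly reads and 61.3% to 73.6% of tRNA-Val reads, beside 70.5% to 84.5% of tRNA-Glu reads. In TM4 cells tRF5 was 15.3% to 91.5% of the tRNA-Gly reads and 23.8% to 94.6% of the tRNA-Val reads, and at most 15.3% of the tRNA-Glu reads. In each of the 6 TM4 libraries tRNA-Glu had the lowest share of the 3 families, and the nearest values were those of CC replicate 2, with 4.68% for tRNA-Glu and 15.3% for tRNA-Gly. These shares were not tested.

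**Figure D4:**
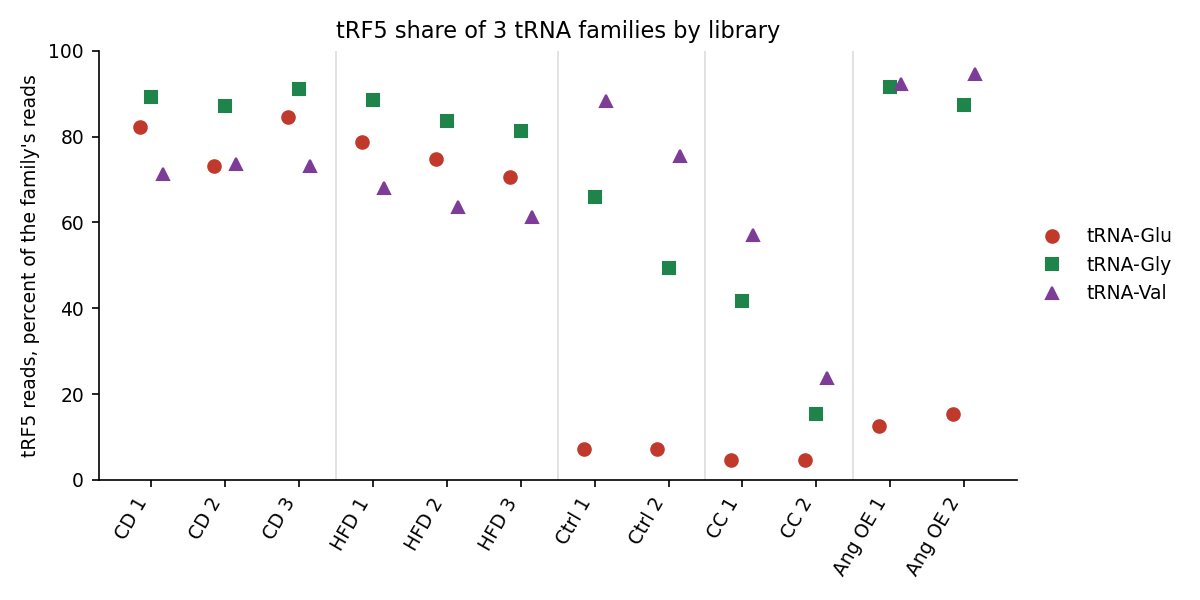
Percent of reads that are tRF5 in tRNA-Glu (circles), tRNA-Gly (squares) and tRNA-Val (triangles) for each of the 12 libraries. In sperm tRNA-Glu lies at 70.5% to 84.5%, and in TM4 cells it lies at 4.68% to 15.3%, below both other families in every library.

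Across the 6 sperm libraries, the tRFs of other families whose log2(RPM + 1) was most like that of the Glu-CTC tRF5, of 130 with a mean of at least 100 reads, were the tRF5 of Gly-GCC (Pearson r = 0.955), His-GTG (0.917) and Val-AAC (0.822). For the tRF5 of Glu-TTC they were the tRF5 of Val-TAC (0.947) and of Asp-GTC (0.884) and the class other of His-GTG (0.860). Across the 6 TM4 libraries, the Glu-CTC tRF5 was most like the tRF5 of Lys-TTT (0.996), Lys-CTT (0.985) and Gly-CCC (0.979). That of Glu-TTC was most like the tRF5 of Ala-CGC (0.748) and the class other of Trp-CCA (0.678) and Ser-GCT (0.674). The tRF5 of the 2 tRNA-Glu isoacceptors had r = 0.477 with each other in sperm and 0.229 in TM4. These values are descriptions over 6 libraries each, which share their depth and their diet or treatment groups.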

How the data were processed

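Small RNA libraries (TruSeq, reads of 15 to 45 nucleotides) were annotated by the authors with SPORTS1.1, allowing 1 mismatch, against rRNA, GtRNAdb and further databases in turn, on mm10. FastQC 0.12.0 and Trimmomatic 0.40 are named in the submitters' notes. The deposited summary tables give estimated counts per isoacceptor and end class, in which a read is divided among its matches. Here genome-matched and unmatched reads were added, rounded, and fitted with edgeR 4.0.16 (quasi-likelihood test) over all tRFs with at least 10 reads in 3 sperm or 2 TM4 libraries, with clean reads minus rRNA reads as library size. All 6 TM4 libraries entered each TM4 fit. Calls are at an adjusted p of 0.05, and SEs are derived from the F statistic. Fits were tested on simulated data with log2 fold changes of 3 in either direction and a fixed spread. Their power for smaller changes was not tested. Shares were compared by exact permutation. DESeq2 1.42.0 (the authors' test), TMM, ComBat-seq (sva 3.50.0, which the authors used on the cell lines without naming the batches), other filters and single left-out libraries were alternatives. tRNA gene sequences were found in GRCm39 by cloverleaf (anticodon, T loop and at least 15 of 17 stem pairs), since the tables used here hold none, and no coordinate was converted. Any match on chromosome 18 was left out. Not every sequence found is reported here. The tRFs named are the 6 of tRNA-Glu, the 7 of the context list and the 3 most alike by correlation. Members and lists were chosen with earlier results of these data known. Marker lists are miRNA precursors.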

Additional observations from a re-analysis of the deposited data

Results flagged for a closer look

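The mitochondrial tRNA-Glu, a separate gene that the comparisons above do not use, had a higher share of 3′ reads in Ang OE than in control TM4 cells. Its reads at the 3′ end, with or without CCA, were 75.4% and 70.7% in the Ang OE libraries, a mean of 73.1%, and 61.6% and 65.5% in the Ctrl libraries, a mean of 63.6%. They were 60.3% and 69.4% in CC and 38.2% to 55.3% in the sperm libraries. The level of mitochondrial tRNA-Glu was 63.3 and 50.8 RPM in Ang OE and 88.8 and 62.1 RPM in Ctrl. The difference was not tested, since 2 libraries against 2 cannot go below p = 1/3 in an exact permutation test.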

How the results depend on the processing

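Groups of 2 or 3 libraries limit every test here, and a sperm library pools 3 males. Values below are log2 fold changes unless said otherwise, and the cause of a change was not tested. The calls on the tRF5 of Glu-CTC in Ang OE against CC and in CD sperm against Ctrl TM4 stood in all 19 and 14 alternatives run.

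TMM scaling over all tRFs turned the direction in HFD against CD sperm of tRF3 (−0.31) and other (−0.23) of Glu-CTC and of tRF5 (−0.57), tRF3 (−0.26) and other (−0.19) of Glu-TTC. In CC against Ctrl it turned tRF3 (−0.33) and other (−0.20) of Glu-CTC and tRF3 (−0.25) and other (−0.11) of Glu-TTC. It turned other of Glu-TTC (0.28) in Ang OE against CC and other of Glu-CTC (−0.70) in CD sperm against Ctrl TM4. For totals, TMM over isoacceptors gave −0.39 for Glu-TTC on the HFD, −0.25 for Glu-CTC and −0.32 for Glu-TTC in CC, and 0.15 for Glu-TTC in Ang OE against CC, and left 1 of 2 totals called in CD sperm against Ctrl TM4.

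DESeq2 with its own size factors gave in HFD against CD −0.21 for tRF3 and −0.11 for other of Glu-CTC, and −0.44, −0.15 and −0.068 for tRF5, tRF3 and other of Glu-TTC. In CC against Ctrl it gave −0.25 and −0.13 for tRF3 and other of Glu-CTC and −0.17 and −0.029 for those of Glu-TTC. It gave 0.28 for other of Glu-TTC in Ang OE against CC and −0.45 for other of Glu-CTC in CD sperm against Ctrl TM4. All clean reads as library size gave −0.11 for the tRF5 of Glu-TTC on the HFD. CCA fragments as a class of their own gave −0.043 for the remaining tRF3 of Glu-CTC in CC against Ctrl.

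With genome-matched reads alone, 3 of 6 tRFs were called in CD sperm against Ctrl TM4 (110 of all 138). Other of Glu-TTC was at 0.031 in Ang OE against CC, and the total of Glu-TTC at 0.054 against Ctrl and 0.046 against CC. The difference in tRF5 share from Ctrl was then −3.59 percentage points in CC (−2.56 with all reads) and 8.57 in Ang OE (6.74 with all reads). Fitting Ang OE and Ctrl alone called 1 of 6 tRFs (45 of all 142), as did ComBat-seq (62 of 142), which called 2 in Ang OE against CC (88 of 142).

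Leaving out each library in turn, the tRFs called ranged from 0 to 1 in CC against Ctrl and in Ang OE against Ctrl, and from 1 to 2 in Ang OE against CC. Directions turned in some of these. On the HFD, tRF3 of Glu-CTC ran from −0.042 to 0.33, tRF5 of Glu-TTC from −0.16 to 0.18, the total of Glu-CTC from −0.32 to 0.016 and that of Glu-TTC from −0.0058 to 0.33. In CC against Ctrl, tRF3 of Glu-CTC ran from −0.11 to 0.26, other of Glu-CTC from −0.29 to 0.52, the total of Glu-CTC from −0.28 to 0.44 and that of Glu-TTC from −0.062 to 0.26. In Ang OE against Ctrl, tRF5 of Glu-TTC ran from −0.95 to 0.21 and its total from −0.57 to 0.12. In Ang OE against CC, tRF5 of Glu-TTC ran from −0.59 to 0.57, other of Glu-TTC from −0.30 to 0.056 and the total of Glu-TTC from −0.66 to 0.024. Shares of tRNA-Glu in tRNA reads ran from −0.395 to 0.370 points on the HFD and from −2.19 to 2.54 points in CC, and the Glu-CTC share from −2.11 to 1.90 points in CC.

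Replicate numbers are shared by groups but nothing says that they pair libraries. Deviations of same-numbered libraries from their group means had r = 0.020, 0.206 and 0.205 in sperm, 0.763 between CC and Ctrl, −0.225 between Ang OE and Ctrl and −0.258 between Ang OE and CC. With the replicate block, 0 tRNA-Glu tRFs were called on the HFD, in CC and in Ang OE against Ctrl, 1 in Ang OE against CC and 5 in CD sperm against Ctrl TM4, and over all tRFs 0, 2, 25, 77 and 121 in the same order, in place of 0, 1, 15, 74 and 118. The following were chosen after seeing the data. With the 2 groups fitted alone and the replicate block, the tRF5 of Glu-CTC was the 1 of 6 called in CC against Ctrl (−0.79, adjusted p = 0.0225 by edgeR, with 48 of all 141 called) and 1 was called in Ang OE against Ctrl (42 of 142), and tRF5 of Glu-TTC was at −0.0083 in Ang OE against CC. With crossed numbers in the replicate block 1 was called in Ang OE against Ctrl (55 of all tRFs) and 1 in Ang OE against CC (61), and tRF5 of Glu-TTC was at −0.0085 in the latter.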
